A study of Mus musculus with 12 samples.

Results

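The genes described here are 9 interferon response genes of the mouse: the interferon regulatory factors Irf1, Irf2, Irf7 and Irf9, the interferon-induced transmembrane genes Ifitm1, Ifitm2 and Ifitm3, the ubiquitin-like modifier Isg15 and the tetherin gene Bst2. The probes of these genes were found by the gene symbol that the array platform's annotation gives each probe. Of the 9 names, 8 had a probe, with 13 probes of the 24613 on the array and 8 of its 15967 genes; no probe carried the symbol Isg15, and its level is not reported here. The genes were chosen on their levels over the days of this experiment, so those levels and their differences are given as a description, with standard errors; the fit over all genes enters for them only as a count of calls, from which nothing is read.

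The samples were 12 Illumina BeadChip arrays of the mouse embryonic stem cell line W9.5, with 3 arrays on each of days 0, 4, 8 and 15 of a differentiation toward pancreatic progenitors. All 12 arrays carry the same treatment text, in which the cells received activin A, retinoic acid, and retinoic acid together with fibroblast growth factor one after the other. The days on which each agent was present are not stated, and day 0 carries the same text as the later days. The labels name no genotype change, no added interferon and no virus. Whether the replicates of a day came from different cultures is not stated, and every p-value measures the spread between these arrays alone.

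Interferons are secreted signals that a cell makes after it senses viral nucleic acid. Type I interferons act through receptors that carry the kinases JAK1 and TYK2 and lead to ISGF3, a complex with STAT2 and IRF9 that binds the interferon-stimulated response element (ISRE); interferon gamma acts through JAK1 and JAK2 and on genes that carry the gamma-activated site (GAS). IRF1 and IRF2 bind the same DNA element, IRF1 as an activator and IRF2 mostly as a repressor. Embryonic stem cells are known for a weak response to interferon and for a high basal level of some antiviral genes, the IFITM genes among them.

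The promoters of 6 members are shown because their levels followed different courses over the days and because they differ in the interferon elements they hold. Each run is the reference sequence from RefSeq (build GRCm38.p6), 5′ to 3′ on the gene's own strand, from 250 bases before the annotated start to 30 bases after it. Capitals mark matches to the core of the ISRE, which is the half-site GAAA, any 2 bases and the half-site GAAA again, searched on both strands, and to the GAS letters TTCNNNGAA, which read the same on both strands.
Irf1, chr11:53769764-53770043, plus strand: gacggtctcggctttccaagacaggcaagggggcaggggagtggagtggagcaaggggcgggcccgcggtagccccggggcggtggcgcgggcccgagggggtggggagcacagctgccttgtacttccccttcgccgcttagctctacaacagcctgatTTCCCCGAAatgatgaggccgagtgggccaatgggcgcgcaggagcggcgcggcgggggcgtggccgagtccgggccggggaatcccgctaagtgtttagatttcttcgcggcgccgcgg
Irf2, chr8:46739495-46739774, plus strand: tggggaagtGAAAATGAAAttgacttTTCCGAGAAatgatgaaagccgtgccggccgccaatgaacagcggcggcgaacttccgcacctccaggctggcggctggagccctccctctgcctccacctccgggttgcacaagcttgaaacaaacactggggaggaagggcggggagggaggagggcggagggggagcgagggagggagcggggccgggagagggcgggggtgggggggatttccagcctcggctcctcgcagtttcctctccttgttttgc
Ifitm1, chr7:140967826-140968105, plus strand: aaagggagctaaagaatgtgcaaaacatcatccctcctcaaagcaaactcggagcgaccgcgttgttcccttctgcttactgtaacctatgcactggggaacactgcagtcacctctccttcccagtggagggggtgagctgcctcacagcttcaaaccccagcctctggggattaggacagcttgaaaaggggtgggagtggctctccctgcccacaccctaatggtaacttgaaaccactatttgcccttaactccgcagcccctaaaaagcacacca
Ifitm2, chr7:140955932-140956211, minus strand: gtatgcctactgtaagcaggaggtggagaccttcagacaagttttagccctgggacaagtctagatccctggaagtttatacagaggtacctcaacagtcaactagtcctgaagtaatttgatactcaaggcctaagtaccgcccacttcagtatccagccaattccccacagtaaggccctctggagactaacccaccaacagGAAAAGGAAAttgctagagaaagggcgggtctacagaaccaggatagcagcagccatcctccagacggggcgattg
Ifitm3, chr7:141010715-141010994, minus strand: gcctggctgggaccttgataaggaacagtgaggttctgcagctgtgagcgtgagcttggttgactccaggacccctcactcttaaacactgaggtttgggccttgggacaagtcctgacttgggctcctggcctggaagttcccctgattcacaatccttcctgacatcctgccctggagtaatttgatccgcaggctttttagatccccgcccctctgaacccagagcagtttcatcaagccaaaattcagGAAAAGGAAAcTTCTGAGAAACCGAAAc
Bst2, chr8:71537443-71537722, minus strand: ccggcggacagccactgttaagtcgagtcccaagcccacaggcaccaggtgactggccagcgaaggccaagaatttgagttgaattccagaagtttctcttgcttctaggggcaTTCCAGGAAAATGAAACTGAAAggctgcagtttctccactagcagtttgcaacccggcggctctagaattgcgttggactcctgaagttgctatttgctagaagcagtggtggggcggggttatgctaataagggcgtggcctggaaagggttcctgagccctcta

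All 9 members had an entry in the promoter table, with 11 start sites between them, and each search covered 300 bases, 50 of them after the start. Counted from the start, the Irf1 run holds a GAS match, TTCCCCGAA, at -90 to -82 and no ISRE match. The Irf2 run holds an ISRE match, GAAAATGAAA, at -241 to -232 and a GAS match, TTCCGAGAA, at -224 to -216. The Ifitm2 run holds 1 ISRE match, GAAAAGGAAA, at -46 to -37. In Ifitm3 the same 10 letters lie at 3 to 12 after the start, a second ISRE match, GAAACCGAAA, lies at 20 to 29, and a GAS match, TTCTGAGAA, at 14 to 22 overlaps the second. The Bst2 run holds GAAAATGAAA at -130 to -121 and GAAACTGAAA at -124 to -115, which overlap each other, and a GAS match, TTCCAGGAA, at -136 to -128 that overlaps the first. Isg15 held 3 overlapping ISRE matches between -78 and -57, while Irf7, Irf9, Ifitm1 and the second start site of Irf1 held neither motif in these windows. In all, 5 members held an ISRE match and 4 a GAS match, against 3.44% and 8.3% of the 32851 promoters in the table. A match describes letters and not a bound site. In the order of the RefSeq annotation, Ifitm2, Ifitm1 and Ifitm3 are direct neighbours on chromosome 7, between Ifitm5 and Ifitm6.

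Levels below are log2 intensities after background correction and quantile normalization, given per array in the order of replicates 1, 2 and 3; a probe counted as detected on an array where its deposited detection p-value was under 0.05. The lowest level called detected lay between 5.04 and 5.33 on the 12 arrays. Levels of different probes are not compared with each other, since probes differ in brightness. In these bulk samples, fewer cells of a type and less RNA per cell cannot be told apart.

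**Figure D1:**
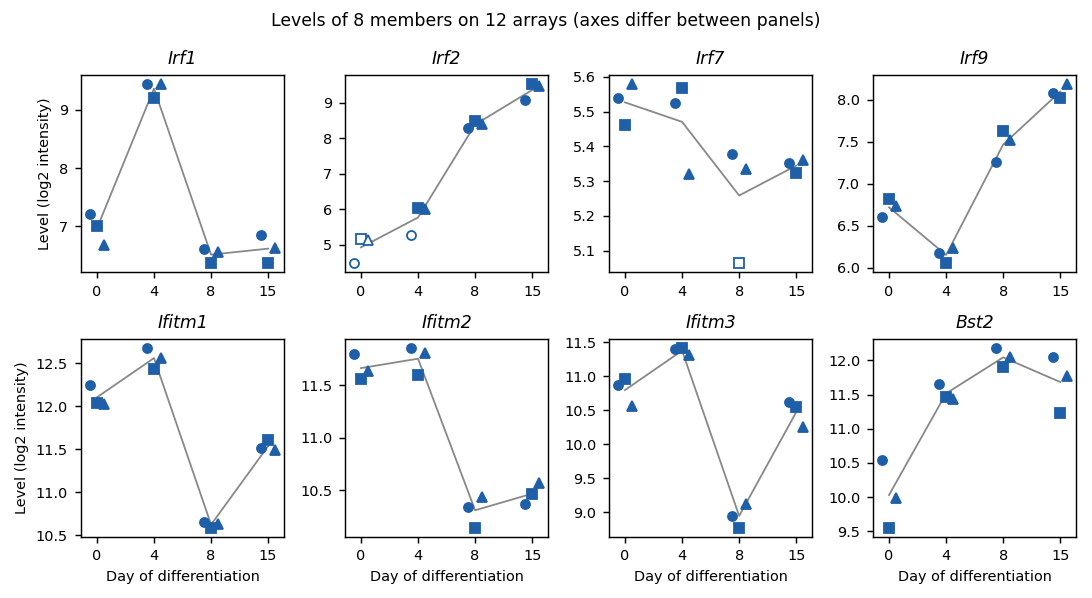
Log2 intensity (vertical axes, which differ between panels) of the 8 members with a probe against the day of differentiation (horizontal axis). Circles, squares and triangles are replicates 1, 2 and 3, open symbols are arrays on which the probe was not detected, and the lines join day means. Irf1 stands highest on day 4, Irf2 and Irf9 on day 15, and Ifitm1, Ifitm2 and Ifitm3 lowest on day 8.

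Among the IRF factors, Irf1 was high on a single day. Its brightest probe read 7.21, 7.0 and 6.68 on day 0, 9.44, 9.20 and 9.45 on day 4, 6.62, 6.37 and 6.56 on day 8, and 6.86, 6.37 and 6.63 on day 15. All 3 arrays of day 4 lay above all other arrays, while day 15 overlapped both day 8 and day 0. In scanner units, before any correction, the day means were 158.7, 676.0, 137.3 and 156.5. The day 4 level was 2.40 ± 0.17 (log2, SE of the fit, n = 3 arrays per day) above day 0, which is 5.27-fold, and the day 8 level was 7.19-fold under day 4, a difference of -2.85 ± 0.17.

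The array carries 4 probes for Irf1. Of the 3 dimmer ones, 2 were detected on all 3 arrays of day 4 and on none of day 0 or day 8, and 1 of these was detected on 1 array of day 15. One of the pair was at least 2.47-fold higher on day 4 than on day 0 and at least 2.61-fold higher than on day 8, and for the other the bounds were 2.26-fold and 2.39-fold. These bounds set the bright day's mean against the detection floor of the dim day. The last probe was not detected on any array. With all detected Irf1 probes averaged, the difference between day 4 and day 0 was 1.91, and that between day 8 and day 4 was -2.11.

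**Figure D2:**
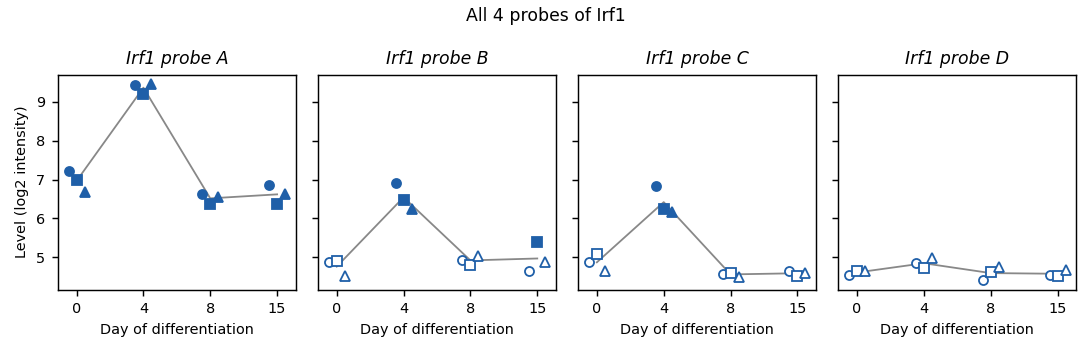
Log2 intensity of the 4 Irf1 probes (1 panel each) against the day of differentiation, with replicates 1, 2 and 3 as circles, squares and triangles, open symbols for arrays without detection and lines through day means. The 3 probes that were detected anywhere have their highest day mean on day 4, and the fourth has open symbols throughout.

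Irf2 followed another course and ended high. It read 4.48, 5.18 and 5.13 on day 0, where it was not detected on any array, and 5.26, 6.02 and 6.02 on day 4, where 2 of 3 arrays detected it. It read 8.28, 8.48 and 8.38 on day 8 and 9.06, 9.53 and 9.46 on day 15. No 2 days overlapped, and the order of the days was the order of time. Day 8 stood 6.12-fold above day 4 (2.61 ± 0.22, log2) and day 15 stood 1.96-fold above day 8 (0.97 ± 0.22). Against the undetected level of day 0, day 4 was at least 1.44-fold and day 15 at least 17.3-fold higher. The range of its day means, 4.42, was wider than that of 99% of the 9657 genes measured. The low end of this range is the undetected day 0 mean, 4.93, under that day's mean detection floor of 5.24. The size of the range is therefore uncertain, and its rank is a description of a gene chosen on these levels.

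Irf9, the DNA-binding subunit of ISGF3, had its lowest level on day 4, the day on which Irf1 was highest. Its arrays read 6.60, 6.82 and 6.74 on day 0, 6.17, 6.05 and 6.23 on day 4, 7.26, 7.62 and 7.52 on day 8, and 8.08, 8.02 and 8.19 on day 15. The 4 days did not overlap, and in ascending order they were day 4, day 0, day 8 and day 15. Day 4 was 1.48-fold under day 0 (-0.57 ± 0.15, log2), day 8 was 2.49-fold above day 4 (1.31 ± 0.15) and day 15 was 1.55-fold above day 8 (0.63 ± 0.15).

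Irf7, a main activator of the type I interferon genes, stayed close to the detection floor. It read 5.54, 5.46 and 5.58 on day 0, 5.52, 5.57 and 5.32 on day 4, 5.38, 5.06 and 5.33 on day 8 (2 of 3 arrays detected) and 5.35, 5.32 and 5.36 on day 15. Neighbouring days in the order of level overlapped throughout, and the widest difference between day means, 0.268, was smaller than that of most genes (7.72% had a smaller one). Day 15 lay wholly under day 0, with a difference of -0.18 ± 0.14 (log2).

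Over the 12 arrays, the levels of Irf2 and Irf9 had a Pearson correlation of 0.886, and Irf1 and Irf9 one of -0.801. The 12 points fall into 4 days and share their arrays, so these values describe the courses above and carry no p-value.

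The IFITM proteins are small membrane proteins that block the entry of many enveloped viruses, and in the mouse Ifitm1 and Ifitm3 are also known as genes of the epiblast and early germ cells. The 3 genes were bright in the stem cells and at their lowest on day 8. Ifitm1 read 12.25, 12.04 and 12.02 on day 0, 12.68, 12.44 and 12.56 on day 4, 10.66, 10.59 and 10.63 on day 8, and 11.52, 11.61 and 11.49 on day 15. Its 4 days stood apart from each other, with day 8 lowest, then day 15, day 0 and day 4. The level on day 8 was 3.82-fold under day 4 (-1.93 ± 0.10, log2), and day 15 was 1.88-fold above day 8 (0.91 ± 0.10) and 1.48-fold under day 0. The other 2 probes of Ifitm1 were not detected on any of the 12 arrays.

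Ifitm3 had the same order of days and a wider range. Its arrays read 10.87, 10.96 and 10.57 on day 0, 11.39, 11.42 and 11.31 on day 4, 8.94, 8.78 and 9.12 on day 8, and 10.62, 10.55 and 10.25 on day 15. Days 4 and 8 stood apart from all others, while days 0 and 15 overlapped. Day 4 was 1.49-fold above day 0 (0.58 ± 0.14, log2), day 8 was 5.39-fold under day 4 (-2.43 ± 0.14) and day 15 was 2.88-fold above day 8 (1.53 ± 0.14).

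Ifitm2 took 1 step down and showed no clear return. It read 11.80, 11.57 and 11.63 on day 0, 11.86, 11.60 and 11.81 on day 4, 10.34, 10.14 and 10.44 on day 8, and 10.37, 10.46 and 10.57 on day 15. Days 0 and 4 overlapped, and so did days 8 and 15, with the first pair wholly above the second. The level on day 8 was 2.73-fold under day 4 (-1.45 ± 0.12, log2) and that on day 15 was 2.30-fold under day 0 (-1.20 ± 0.12). Its difference between day 4 and day 0 was 0.09 ± 0.12 and turned to -0.122 when the arrays were scaled to a common median instead of quantile-normalized. The difference between day 15 and day 8 was 0.16 ± 0.12, and it turned to -0.005 under that scaling; the day 4 and day 15 differences of Ifitm1 and Ifitm3 kept their direction.

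Over the 12 arrays Ifitm1 correlated with Ifitm3 at 0.971, Ifitm1 with Ifitm2 at 0.905 and Ifitm2 with Ifitm3 at 0.805, again as a description of 4 days. The probes' own sequences were not used here, and a signal shared between these related genes was not tested. Ifitm10, the other IFITM gene that was measured, lay near the detection floor (5.54 ± 0.08 on day 0 and 5.33 ± 0.18 on day 15, SD, n = 3) and passed the test in none of the 4 comparisons (adjusted p from 0.204 to 0.946).

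Bst2 encodes tetherin, a membrane protein that holds budding virus particles on the cell surface. It read 10.55, 9.56 and 9.99 on day 0, 11.66, 11.47 and 11.43 on day 4, 12.19, 11.90 and 12.05 on day 8, and 12.05, 11.23 and 11.77 on day 15. All later arrays lay above all arrays of day 0, and day 15 overlapped both day 4 and day 8. The spread was widest on days 0 and 15 (SD 0.50 and 0.42, against 0.12 and 0.14 on days 4 and 8). Day 4 was 2.80-fold above day 0 (1.49 ± 0.21, log2), day 8 was 1.44-fold above day 4 (0.53 ± 0.21), and day 15 was 3.14-fold above day 0 (1.65 ± 0.21).

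**Figure D3:**
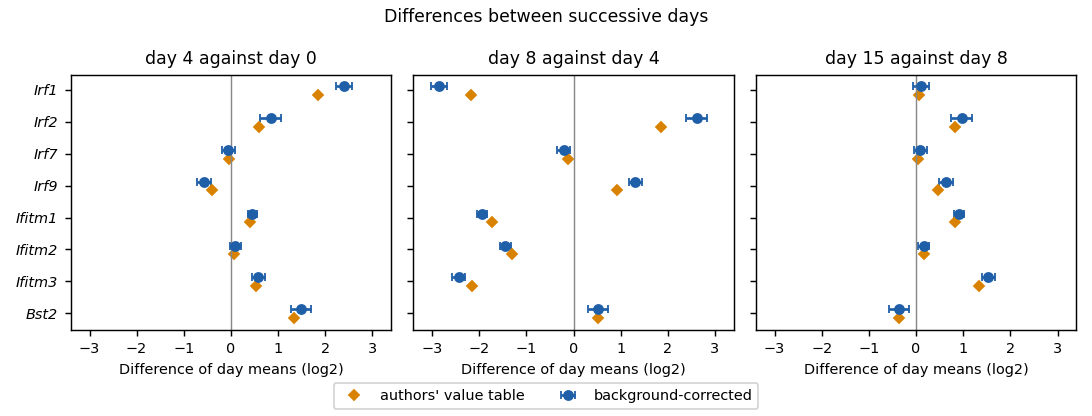
Difference of day means on the log2 scale (horizontal axes) for each of the 8 members (vertical axis) in the 3 successive steps. Circles with bars are the background-corrected values with the standard error of the fit, and diamonds are the differences in the authors' value table. Irf1 lies far to the right on day 4 and far to the left on day 8, and the diamonds lie closer to 0 for the dimmer genes.

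Side by side, the 8 members did not move as a block. Between day 0 and day 4, 5 were higher and 1 lower without overlap between the arrays of the days, between day 4 and day 8 3 were higher and 4 lower, and between day 8 and day 15 4 were higher and none lower. The same numbers of members had an adjusted p under 0.05 in these steps (limma with Benjamini-Hochberg adjustment over all 9657 genes). Of all genes, 14.7% were called higher and 12.3% lower on day 4, 28.1% and 27% on day 8, and 12.6% and 9.39% on day 15; without overlap they were 19.4% and 19.2%, 31.2% and 30.3%, and 18.3% and 17.9%. In a fit blocked on replicate number, Bst2 was also called lower between day 8 and day 15. From day 0 to day 15, 3 members were called higher and 3 lower (4 with the block, which added Irf1), against 31.9% and 35.6% of all genes, and 3 were higher and 3 lower without overlap, against 31.9% and 37.1%. Neighbouring steps share the arrays of a day, and the members were chosen on these levels, so nothing is read from the counts. The median difference over the members was 0.517 on day 4, -0.831 on day 8 and 0.394 on day 15, beside -0.0403, -0.0108 and -0.0409 over all genes. These medians rest on the same choice of members, and nothing is read from them.

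Of the members, 4 had their highest day mean on day 4 (Irf1, Ifitm1, Ifitm2 and Ifitm3), 2 on day 15 (Irf2 and Irf9), 1 on day 8 (Bst2) and 1 on day 0 (Irf7). Over all genes, day 4 was the highest day of 18%, day 15 of 25.9%, day 8 of 19.6% and day 0 of 36.5%. Day 8 was the lowest day of 5 members (Irf1, Irf7, Ifitm1, Ifitm2 and Ifitm3) and of 18.3% of all genes. Day 0 was the lowest day of 2 members (Irf2 and Bst2), day 4 of 1 (Irf9) and day 15 of none. Over all genes these shares were 27.2%, 20.2% and 34.3%. For Irf1, Irf7 and Ifitm2 the arrays of day 8 overlapped those of day 15. The highest day overlapped the next one in order of level for Ifitm2, Irf7 and Bst2. The members were chosen on these levels, so nothing is read from these counts either.

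In the authors' value table, which is also on the log2 scale, the day means of Irf1 were 7.52, 9.36, 7.18 and 7.24, and those of Irf2 were 6.11, 6.70, 8.55 and 9.36. The differences of dim genes were smaller there: 1.85 for Irf1 between day 0 and day 4, 3.25 for Irf2 between day 0 and day 15, and 0.919 for Irf9 between day 4 and day 8. For the bright genes the values were closer, with -1.73 for Ifitm1, -1.31 for Ifitm2 and -2.15 for Ifitm3 between day 4 and day 8.

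The genes whose levels were most like each member's over the 12 arrays were taken as the 3 with the highest Pearson correlation among all measured genes. For Irf1 they were Lefty1 (0.991), Lefty2 (0.977) and Snrpn (0.977), and for Irf2 they were Nck2 (0.993), Igfbp5 (0.993) and Twsg1 (0.992). Irf9 was most like Tha1 (0.987), Ppp1r9b (0.985) and Man2a1 (0.984). Ifitm1 and Ifitm3 both had Lgals3 among their 3 (0.983 and 0.974), beside Uchl1 (0.982) and Chst10 (0.982) for Ifitm1 and Fez1 (0.982) and Bhlha15 (0.974) for Ifitm3. Ifitm2 was most like Amhr2 (0.997), Pou5f1 (0.993), the stem cell factor OCT4, and Pla2g10 (0.990). For Bst2 the values were 0.970 with Renbp, 0.969 with Mt1 and 0.968 with Mgst3, and for Irf7 0.897 with Etv6, 0.888 with Garnl3 and 0.885 with Cdkal1. These values compare day courses that most of the array's genes share in part, and they carry no p-value.

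The other genes of the interferon system were described through lists of ligands, receptors, signalling proteins, sensors, inhibitors and targets. Of 174 names, 132 were on the array and 74 were bright enough to be tested. Between day 0 and day 4, 29 of the 74 rose, 4 fell and 41 did not pass the test, and the median difference was 0.187 (log2), or 0.0275 over all 132 genes on the array. Among the 29, 11 were not detected on any array of day 0. When genes were counted only if detected on at least 1 array of each compared day, 18 of 54 rose and 3 fell. Irf5, Ifi35 and Igtp passed the filter only through day 0 or day 4, and without them 27 of 71 rose and 3 fell. Of all genes, 54.4% of those called were higher on day 4, and 43.8% under median scaling. The counts by list below stand beside 14.7% of all genes called higher and 12.3% lower on day 4. On day 8 these shares were 28.1% and 27%, and on day 15 against day 8 they were 12.6% and 9.39%.

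Interferon-inducible GTPases, which attack the vacuoles of intracellular pathogens, had the same turn as Irf1 on days 4 and 8. All 5 that were tested were called higher on day 4 and lower on day 8; Igtp, at 4.79, 6.41, 5.07 and 5.0 in day mean, passed the filter on dim probes only through day 4, and the other 4 passed it without that day. Irgm1 had day means of 5.13 ± 0.51, 8.51 ± 0.12, 6.50 ± 0.20 and 6.64 ± 0.30 (log2, SD, n = 3) on days 0, 4, 8 and 15, and was detected on 1 of 3 arrays on day 0 and on all later arrays. Its fitted rise on day 4 was 3.38 ± 0.22 (SE, adjusted p = 3.16e-09). Its day 0 mean lay under the mean detection floor of that day, 5.24, so the size of this rise is uncertain and no fold is given. Gbp2b, not detected on day 0, read 7.79 ± 0.22 on day 4, 5.97 ± 0.34 on day 8 and 6.82 ± 0.29 on day 15. It rose at least 5.84-fold on day 4 (adjusted p = 2.35e-09). The other 9 GTPase and p200 genes on the array were too dim to be tested.

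Antigen presentation genes also rose on day 4, 10 of 12, and none fell, beside 14.7% of all genes called higher. Some of the list, H2-T23 among them, were not detected on any array of day 0. B2m, the light chain of class I molecules, rose 3.43-fold (1.78 ± 0.13, log2, adjusted p = 1.42e-08), and the class I heavy chain gene H2-K1 rose 3.06-fold (1.61 ± 0.21, adjusted p = 1.38e-05). The day 0 arrays of H2-K1 spread from 6.77 to 7.97 (SD 0.60). On day 8 the list divided, with 3 genes higher and 6 lower. H2-T23, a non-classical class I gene, rose 5.77-fold (adjusted p = 3.99e-10), while the immunoproteasome subunit gene Psmb10 fell 7.62-fold (-2.93 ± 0.15, adjusted p = 4.14e-11). On day 4, H2-T23 was detected on 2 of 3 arrays. Its day 4 mean, 5.26, lay near the mean detection floor of that day, 5.20, so the size of its rise is uncertain. Psmb10 had day means of 10.55, 11.56, 8.63 and 8.60, and B2m of 9.07, 10.85, 12.16 and 12.16. From day 0 to day 15, B2m rose 8.51-fold (adjusted p = 1.49e-12), H2-K1 rose 8.52-fold (adjusted p = 6.71e-10) and Psmb10 fell 3.86-fold (adjusted p = 3.9e-09).

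All 3 chemokine genes that were tested rose on day 4. The monocyte attractants Ccl7 and Ccl2 then fell on day 8, by 6.76-fold (adjusted p = 3.49e-11) and at least 4.54-fold (adjusted p = 3.29e-09), and rose again on day 15, by 1.55-fold (adjusted p = 0.003) and at least 1.44-fold (adjusted p = 0.0013). Cxcl10, a T cell attractant, went the other way: it rose 1.70-fold on day 8 (adjusted p = 0.00103) and fell 1.56-fold on day 15 (adjusted p = 0.0114). The last call was lost without day 8 replicate 1 (adjusted p = 0.0608) or day 15 replicate 3 (adjusted p = 0.0543). On day 4, Cxcl10 had a day mean of 5.43, near the detection floor, and was detected on 2 of 3 arrays.

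Of the ligand genes, 15 were on the array and 13 were too dim to be tested, Ifnb1 and Ifng among them. The 2 that were tested stayed low: Ifna6 lay between 4.98 and 5.19 in day mean, and Ifnk, which was detected on day 15 alone, reached 5.89 ± 0.20 there. These 2 genes fall outside the rule for named genes and were named after their values were seen.

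Receptor genes rose in the second step. On day 4, 2 of 5 rose, Ifngr2 by 1.22 ± 0.12 (2.32-fold, log2 and SE, adjusted p = 3.17e-07) and Ifnlr1 by 0.46 ± 0.15 (adjusted p = 0.0254). The call of Ifnlr1 was lost under median scaling (0.42, adjusted p = 0.0573), with the 6 arrays of these days alone (adjusted p = 0.0713), with all its probes averaged (0.18, adjusted p = 0.379), and without replicate 2 or 3 of day 0 or replicate 1 or 2 of day 4 (adjusted p = 0.0971, 0.0611, 0.101 and 0.0947). On day 8 all 5 rose: Il10rb, a subunit shared by the receptors for interleukin 10 and interferon lambda, 3.90-fold (adjusted p = 3.36e-08), Ifngr1 2.39-fold (adjusted p = 0.000139), Ifngr2 1.73-fold (adjusted p = 1.5e-05), Ifnlr1 1.55-fold (adjusted p = 0.00135) and Ifnar2 1.44-fold (adjusted p = 0.0131). Ifngr1 was detected on 2 of 3 arrays of day 4. Its day 4 mean, 5.47 ± 0.53 (SD), lay near the mean detection floor of 5.20, so the size of its rise is uncertain. The Ifnlr1 call ended with all its probes averaged (adjusted p = 0.177), and the Ifnar2 call ended without day 4 replicate 1 (adjusted p = 0.07) or day 8 replicate 2 (adjusted p = 0.0711). Ifnar1 was on the array and too dim to be tested.

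Among the kinases and STATs, Jak2 rose 3.78-fold on day 8 (1.92 ± 0.17, log2, adjusted p = 4.1e-08) and Stat2 1.88-fold (0.91 ± 0.19, adjusted p = 0.000585). Stat2 was detected on 2 of 3 arrays of day 4, with a day mean of 5.26 near the mean detection floor of 5.20, so its fold is uncertain. Jak1 differed by -0.19 ± 0.15 (adjusted p = 0.291) and Tyk2 by -0.10 ± 0.21 (adjusted p = 0.733). From day 0 to day 15, Jak2 rose 6.28-fold (adjusted p = 3.38e-10) and Stat2 rose 1.59-fold (adjusted p = 0.00518). None of the 4 passed the test on day 4, when Stat2 differed by -0.48 ± 0.19 (adjusted p = 0.0696); it passed in the fit blocked on replicate number (adjusted p = 0.019) or without day 0 replicate 3 (adjusted p = 0.027).

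Of the 5 other genes of the IRF family and its partners that were tested, 3 rose on day 8. Irf8 and Irf4, factors best known from blood cells, were not detected on any array of days 0 and 4 and were detected on all arrays of days 8 and 15. On day 8 Irf8 rose at least 2.83-fold (adjusted p = 1.67e-08) and Irf4 at least 2.04-fold (adjusted p = 3.59e-08). Irf3, which switches on the interferon beta gene, read 10.06 ± 0.30, 10.23 ± 0.13, 10.80 ± 0.08 and 10.96 ± 0.27 on the 4 days and rose 1.49-fold on day 8 (adjusted p = 0.0048). Irf5, with day means of 5.79, 4.68, 4.68 and 4.57, was detected on day 0 alone, so it entered the fit only through the day on which it is high, and its difference is given no test.

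Antiviral target genes went in both directions. Of 25 tested, 8 rose and 2 fell on day 4, 10 rose and 6 fell on day 8, and 7 rose and 5 fell on day 15. A further 16 on the array were too dim to be tested, among them Ifit1, Ifit3, Mx1, Mx2 and Oas2, which are classical targets of type I interferon. On day 4, Ifi27, a small mitochondrial protein gene, rose 3.07-fold (adjusted p = 3.85e-06), while the ubiquitin ligase gene Trim25 fell 1.37-fold (adjusted p = 0.00789) and the ADP-ribosyltransferase gene Parp14 fell 1.54-fold (adjusted p = 0.0163). The Parp14 call was lost without replicate 2 or 3 of day 0 or replicate 2 of day 4 (adjusted p = 0.0594, 0.0608 and 0.103). Parp14 had a day 4 mean of 5.23, near the detection floor, and was detected on 1 of 3 arrays of that day. In the separate list of sensors, Ddx58, the gene of the RNA sensor RIG-I, fell 2.33-fold on day 4 (adjusted p = 0.000437).

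On day 8, Isg20, an exonuclease gene, rose at least 2.92-fold (adjusted p = 5.07e-09) and Lgals3bp, a secreted glycoprotein gene, rose 4.28-fold (adjusted p = 1.08e-07). The nuclear body gene Pml fell 4.12-fold (adjusted p = 1.9e-08), and the ubiquitin ligase gene Dtx3l fell 4.02-fold (adjusted p = 3.85e-09). Rnf125, a ubiquitin ligase gene from the list of inhibitors, whose product acts on RIG-I, fell at least 3.53-fold (adjusted p = 9.33e-09). From day 8 to day 15, Ifi27 rose 3.52-fold (adjusted p = 1.17e-06), Isg20 rose 3.21-fold (adjusted p = 3.96e-07) and Oas1g, a synthase of the RNA-degrading oligoadenylate pathway, rose 2.07-fold (adjusted p = 0.00153). Ifi30, a lysosomal reductase gene, fell 1.86-fold (adjusted p = 8.34e-06), Plscr1, a scramblase gene, fell 1.84-fold (adjusted p = 1.65e-05) and Samhd1, a nucleotide hydrolase gene, fell 1.74-fold (adjusted p = 0.00216). Uba7, the enzyme that activates ISG15 for conjugation, comes from a separate list of conjugation enzymes. It was not detected on days 0 and 4, read 6.73 ± 0.15 on day 8 and rose 2.54-fold to 8.08 ± 0.27 on day 15 (adjusted p = 5.07e-06).

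**Figure D4:**
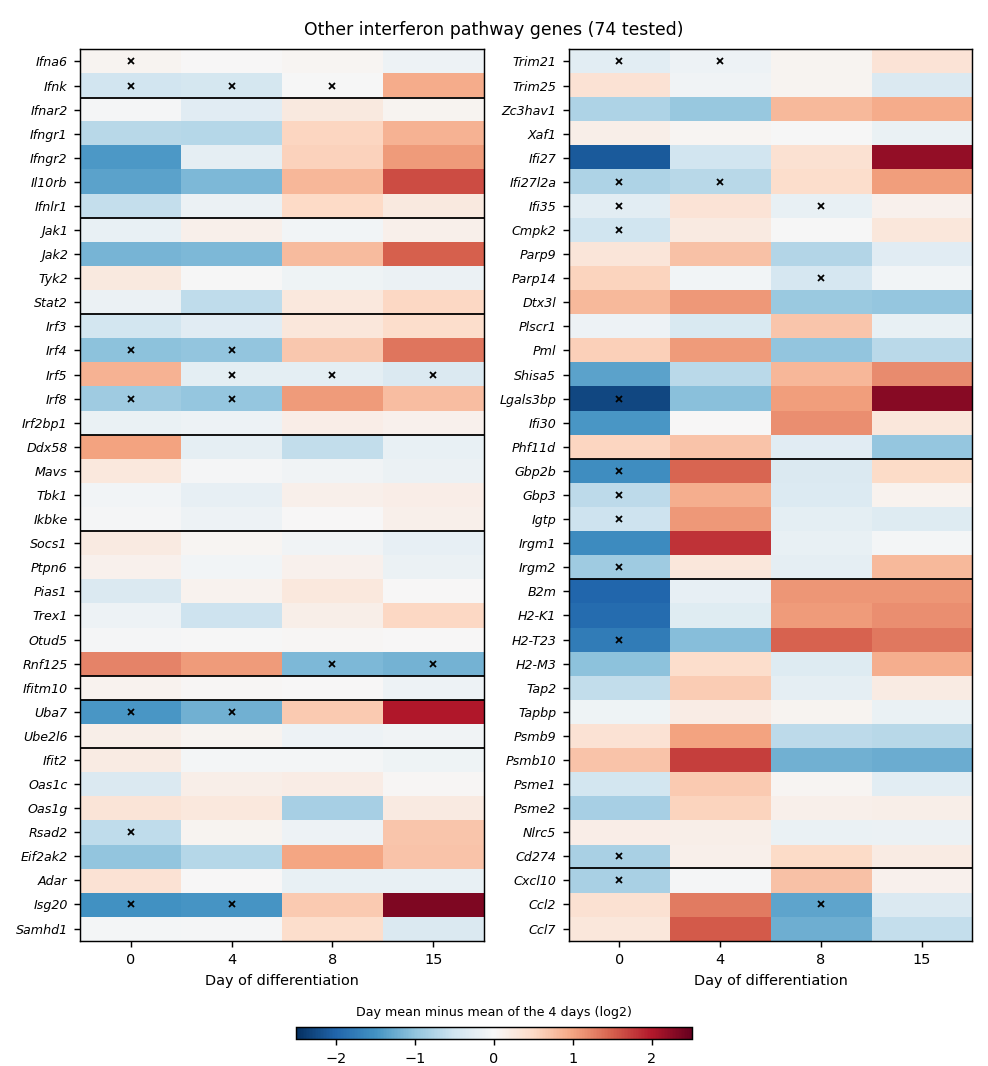
Day mean minus the mean of the 4 day means (log2, colour scale) for the 74 tested interferon pathway genes (rows, in 2 columns, with lines between the lists) on days 0, 4, 8 and 15. Crosses mark days on which no array detected the gene. The 5 GTPase rows from Gbp2b to Irgm2 turn from blue to red between days 0 and 4, and Ifngr1, Ifngr2, Il10rb, Jak2, Irf4 and Irf8 are redder on days 8 and 15 than on days 0 and 4.

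Over the whole course, 36 of the 74 pathway genes rose from day 0 to day 15, 15 fell and 23 did not pass the test, with a median difference of 0.361 (log2). The median was 0.102 over the genes detected on both days and 0.0385 over all 132 genes on the array. That is 68.9% called, beside 67.5% of all genes. Of the 36, 16 were not detected on any array of day 0, and with genes detected on both days 20 of 53 rose and 13 fell. Lgals3bp rose at least 14.3-fold (adjusted p = 2.62e-12), Ifi27 19.8-fold (adjusted p = 2.44e-12), Isg20 at least 9.12-fold (adjusted p = 1.22e-12) and Uba7 at least 7.15-fold (adjusted p = 4.66e-12). Rnf125 fell at least 4.27-fold (adjusted p = 1.31e-09), Dtx3l 3.41-fold (adjusted p = 1.07e-08) and Pml 2.43-fold (adjusted p = 3.67e-06). In the middle step 28 pathway genes rose and 20 fell (64.9% called, beside 55.1% of all genes), and in the last step 18 rose and 6 fell (32.4%, beside 22%). On day 4 the share was 44.6%, beside 27%.

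Markers of the cell types that the cultures could hold moved with the days. All 9 stem cell markers on the array were detected on days 0 and 4 and 8 of them on days 8 and 15 (Fgf4 was not), and their summed linear level was 28674 to 35644 on day 0, 20278 to 23484 on day 4, 5984 to 6528 on day 8 and 8818 to 9237 on day 15. Klf4 alone among them was higher on days 8 and 15 than on day 0, with day means of 11.69, 9.17, 11.91 and 12.03 (log2). It made up most of the sum on day 8 and the largest part of it on day 15. Of 15 markers of macrophages and other blood cells on the array, 11 were not detected on any array of any day, among them Ptprc, Adgre1, Tyrobp and Cd14. The sum of that list was 5738 to 6133 on day 0, 2072 to 2107 on day 4, 420 to 441 on day 8 and 589 to 675 on day 15, and Laptm5, with day means of 12.39, 10.56, 5.61 and 7.45 (log2), made up most of it on days 0 and 4. Of 14 fibroblast markers, 7, 10, 10 and 12 were detected on all 3 arrays of days 0, 4, 8 and 15. The sums of that list were 2541 to 3086, 6829 to 7562, 9321 to 10519 and 19770 to 23811. Acta2 and Pdgfra together made up most of the sum on each day, so it does not describe the list as a whole. Col3a1 and Dcn had higher day means on all later days than on day 0. Thy1 had lower day means on days 8 and 15 than on day 0, and Postn was detected only on 1 array of day 15. The 10 endothelial markers summed to 920 to 1070, 870 to 998, 3495 to 4133 and 4936 to 6159 on days 0, 4, 8 and 15. Flt1, with day means of 5.12, 7.09, 11.66 and 11.79, carried most of the sum on day 8. Cdh5 had day means of 5.06, 5.13, 7.08 and 9.17, and Emcn was also higher on days 8 and 15 than on day 0. Esam and Tek had their highest day means on day 15, 10.10 and 7.30, and Cldn5 on day 4. Eng was lower on days 8 and 15 than on day 0. Pecam1 was detected on all arrays of days 0 and 4 and on none of day 8, and Kdr and Tie1 were not detected on any array of any day. Endoderm markers, 10 on the array, summed to 2031 to 2324 on day 0, 3400 to 3921 on day 4, 34831 to 37765 on day 8 and 15145 to 17843 on day 15. Of 8 germ cell markers, 3, 2, 1 and 4 were detected on all 3 arrays of the 4 days. The part of these cell types in the levels above was not tested.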

How the data were processed

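Per the file headers, the deposited non-normalized table pairs a scanner intensity with a detection p-value for each of 24613 probes and 12 arrays. The authors' deposited value table holds log2 values in the same rank order as the scanner values, with array medians between 6.27 and 6.30; the sources used here do not state how the authors normalized them, and they served as an alternative. The levels reported come from limma 3.58.1 (R 4.3.3), whose neqc function corrects background (negative controls derived from detection p-values, offset 16) and quantile-normalizes.

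A probe was kept if detected (p-value under 0.05) on 3 or more arrays, which 13421 were, and if annotated to 1 gene, which left 11787; the brightest probe stood for each of 9657 genes. A gene high on 1 day alone could pass this filter. All 12 arrays entered 1 limma fit of day means with 8 residual degrees of freedom, and genes were called at a Benjamini-Hochberg adjusted p under 0.05 over all genes. Where no array of the dimmer day detected a probe, the fold is a bound against that day's detection floor. The fit was checked on simulated data. Between 11253 and 12554 probes were detected per array; the number of arrays limits the precision. Array levels correlated at 0.9868 to 0.993 within days and at 0.8459 to 0.9679 between days.

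The members and lists were chosen with earlier results of these data known. Named pathway genes are, per comparison, up to 6 with the largest rise and up to 6 with the largest fall among those called, and every receptor, kinase, STAT, IRF and IFITM gene. Replicate numbers come from the labels. Same-numbered arrays deviated together in day 15 against day 8 (correlations 0.336 to 0.44) and against day 0 (0.41 to 0.5), so the numbers pair those arrays, but not every pair passed 0.1 in day 4 against day 0 (-0.0601 to 0.467) or day 8 against day 4 (0.0639 to 0.354). Unless stated, the calls and adjusted p-values come from the fit without this pairing, also for the day 15 comparisons. The counts with the replicate block are given in the last section. Alternatives covered normalization, offset, probe filters, probe choice, the arrays fitted, the replicate block and each array left out.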

Additional observations from a re-analysis of the deposited data

How the results depend on the processing

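Of 636 recomputed member differences, 604 stayed within the replicate spread of their value, and 5 changed sign, each between days whose arrays overlapped: Ifitm2 under median scaling, on day 4 (0.09 to -0.122) and on day 15 against day 8 (0.16 to -0.00525), Irf1 on day 15 against day 8 without day 15 replicate 1 (0.10 to -0.0168), and Irf7 on day 4 without day 4 replicate 3 (-0.06 to 0.0196) and on day 15 against day 8 without day 8 replicate 2 (0.09 to -0.0117). Many of the 636 differences could not change. Leaving out an array of a day outside the comparison keeps the difference of day means. So do the replicate block and the fit of the 6 arrays of the compared days. The 604 is therefore not a measure of robustness. Of 2007 recomputed values of named pathway genes, 1979 kept their call and direction, 21 lost the call and 7 gained it. Besides the losses given with the results, the calls of Jak2 and Ifngr2 on day 15 against day 8 were lost with all probes averaged (adjusted p = 0.401 and 0.612), and that of Ifngr2 also under median scaling (0.18). Ifnlr1 from day 0 to day 15 lost its call with all probes averaged (0.137), and Trim25 between day 8 and day 15 without replicate 2 of day 8 (0.0727) or of day 15 (0.0787). The median difference of the pathway genes on day 4, 0.187, was 0.0275 with no filter on dim probes, 0.278 with a strict detection filter and 0.105 with genes detected on both days, an alternative chosen after the data were seen; leaving out 1 array gave 0.15 to 0.284, the highest without day 0 replicate 1, and undetected levels set at the floor gave 0.0196. On day 8 the median, 0.0439, was 0.162 with the strict filter, and leaving out 1 array gave 0.0156 to 0.0829. From day 0 to day 15 the median, 0.361, was 0.271 in the authors' value table, 0.258 with an offset of 50, 0.0385 with no filter, 0.655 with the strict filter and 0.102 with genes detected on both days. These filters change which genes are in the list: 132 with none, 62 with the strict one. With genes detected on both days, 18 rose on day 4 and 20 rose from day 0 to day 15, and with the strict filter 2 fell on day 4. Counting only genes that pass the filter without either compared day, also chosen after the data were seen, gave 28 rises and 18 falls on day 8, 17 and 6 on day 15, and 34 and 14 from day 0 to day 15. Leaving out 1 array gave 26 to 29 rises and 3 to 4 falls on day 4, 26 to 29 and 17 to 20 on day 8, 16 to 18 and 5 to 6 on day 15, and 36 to 37 and 14 to 16 over the whole course. With the replicate number as a block, 31 rose and 6 fell on day 4, 29 and 21 on day 8, 22 and 7 on day 15, and 38 and 17 from day 0 to day 15; the block added the calls of Stat2 on day 4 (adjusted p = 0.019) and of Jak1 from day 0 to day 15 (0.0338) and changed no other call of a named pathway gene; of the members it added Bst2 on day 15 against day 8 (5 called in place of 4) and Irf1 from day 0 to day 15 (7 in place of 6). Each day had 3 arrays, and genes near the detection floor, such as Irf7, could show only large changes.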
